A study of Mus musculus with 12 samples.

Results

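The genes described here are 10 members of the integrated stress response, chosen by name: the transcription factors Atf4, Atf5 and Ddit3, the amino acid enzymes Asns and Psat1, the target genes Trib3, Chac1 and Sesn2, and the regulators Ppp1r15a and Impact. All 10 were found among the 35976 gene symbols counted in each library, and 8 of them had enough counts to be tested among 11548 genes. The libraries were 3′ tag RNA-seq of mouse haematopoietic stem cells (HSCs), sorted as lineage-negative cells with c-Kit and Sca-1, and the study asked what CD38 does in these cells at rest, after cytokines and in age. CD38 is a membrane enzyme that consumes NAD. There were 6 groups of 2 libraries: freshly isolated cells of 2-month-old WT animals (young fresh WT, replicates 1 and 2) and of 2-month-old animals labelled KO for Cd38 (young fresh KO, replicates 3 and 4), cells of 2-month-old WT and KO animals after 24 hours of cytokine stimulation outside the body (stimulated WT and stimulated KO), and freshly isolated cells of 24-month-old WT and KO animals (old fresh WT and old fresh KO). The labels gave neither the cytokines, the deleted part of Cd38 nor the number of animals behind a library, so p-values measure only the spread between these libraries, which may be technical.

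In the integrated stress response, 4 kinases that sense missing amino acids, unfolded proteins in the endoplasmic reticulum, double-stranded RNA or lack of haem phosphorylate the translation factor eIF2 on its alpha subunit. Bulk protein synthesis then falls, while a few mRNAs with upstream reading frames, Atf4 among them, are translated more. ATF4 protein turns on genes of amino acid synthesis, amino acid transport and feedback, and a transcript level reports only the RNA part of this chain. Haematopoietic stem cells are known for low protein synthesis and for a readiness to translate ATF4.

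ATF4 pairs with C/EBP proteins on composite sites, and the promoters of several members are known for such sites. Stretches of 30 bases are shown for the members whose window, from 250 bases before to 50 bases after a RefSeq start, held one of 3 motifs, since Atf4 was a member that changed and most of these genes are known targets of ATF4. The windows and coordinates are those of RefSeq on GRCm38.p6, and 11 windows of 9 members (all but Impact) were searched on both strands. Each stretch is written 5′ to 3′ on the strand of its gene, with the motif in capitals. The composite core TGATGNAA was in Asns at chr6:7693214-7693243 (minus strand), and on the strand opposite to the gene in Trib3 at chr2:152344028-152344057 (minus strand) and in Chac1 at chr2:119351038-119351067 (plus strand).
Asns: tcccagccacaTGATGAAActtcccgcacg
Trib3: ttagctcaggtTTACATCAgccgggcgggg
Chac1: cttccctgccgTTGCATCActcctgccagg
The palindromic cyclic AMP response element TGACGTCA, which binds bZIP dimers, was in Ppp1r15a at chr7:45526262-45526291 (minus strand).
Ppp1r15a: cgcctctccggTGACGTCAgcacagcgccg
A variant of the composite core, TGGTGCAA, was in Trib3 at chr2:152344075-152344104 and in Psat1 at chr19:15925177-15925206 (both minus strand). It was chosen after the members' windows had been read.
Trib3 variant: cgggtcacagaTGGTGCAAtcccgggccgc
Psat1 variant: acgcgggtggcTGGTGCAAtcccctgctct
TGATGNAA was in 3 of the 11 member windows and in 1304 of all 32851 windows (3.97%). TGACGTCA was in 1 of the 11 and in 588 of all (1.79%), and TGGTGCAA in 2 of the 11 and in 176 of all (0.536%). A match is a stretch of letters and no evidence of binding.

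Total counts were 1600155 to 1963635 in young fresh, 2692245 to 3249721 in stimulated and 3796591 to 5164720 in old fresh libraries, so age went with depth. Replicates of the stimulated groups resembled each other (Pearson r of log2 levels across genes 0.954 and 0.959), and those of the fresh groups far less (0.704 to 0.746). Levels are given as CPM, in which a gene's count is scaled to the size of its library, and 1 count was worth 0.207 to 0.627 CPM. Among fresh libraries, 37 to 129 genes a group were missing from 1 replicate while over 50 CPM in its partner, and in the stimulated groups 0 genes were. Young fresh WT replicate 1 had 0 counts of Xist, which female cells transcribe, and 200 CPM over 4 Y-linked genes. The other 11 libraries had 198 to 745 CPM of Xist and at most 6.62 CPM of the Y-linked genes. Cd38 was counted in every library, at 17.6 and 24.6 CPM in the young fresh WT libraries against 62.8 and 31.9 in the KO ones, 0.998 and 8.58 in stimulated WT against 3.59 and 2.32 in stimulated KO, and 74.4 and 41.4 in old fresh WT against 13.2 and 19.9 in old fresh KO. Tags outside the deleted part check nothing, so genotypes are named as labelled throughout. The 9 stem and progenitor markers were present in all groups, with sums of 1320 to 2170 CPM.

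Atf4, the central transcription factor of the response (chr15:80255184-80257541, plus strand, GRCm38), rose after cytokine stimulation when the genotypes were averaged. Its level was 192 and 141 CPM in young fresh WT, 189 and 127 in the matching KO libraries, 375 and 378 in stimulated WT, 364 and 298 in stimulated KO, 125 and 186 in old fresh WT, and 178 and 222 in old fresh KO. All 4 stimulated libraries lay above all 8 fresh ones, and the fresh groups overlapped one another. These values rest on 243 to 1320 counts a library. The log2 fold change of stimulated over young fresh cells, with the genotypes averaged, was 1.12 ± 0.226 (SE; edgeR quasi-likelihood test with Benjamini-Hochberg adjustment, adjusted p = 0.0128). Without young fresh WT replicate 1 it was 1.25 (adjusted p = 0.0282). The call was lost without young fresh WT replicate 2 (adjusted p = 0.0607) and without stimulated KO replicate 3 (adjusted p = 0.0739), with log2 fold changes of 1.03 and 1.06. Within WT alone the log2 fold change was 1.18 (adjusted p = 0.151) and within KO alone 1.07 (adjusted p = 0.179), from the same fit. In bulk RNA, a change in the share of cells that carry a transcript and a change per cell cannot be told apart.

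In all, 2 of the 8 tested members passed the adjusted threshold of 0.05 in stimulated against fresh cells, Atf4 and Impact, both higher, and none lower. Of all genes tested, 2.81% passed, 1.31% higher and 1.51% lower. That share was 1.27% to 1.61% when any 1 of the 4 stimulated libraries was left out. The median log2 fold change was 1.11 over the 8 members and 0.27 over all genes, with 5 members above 0 and 3 below. Of all genes tested, 60.3% were above 0. The other 6 members did not pass, and a p above the threshold does not show that levels were equal. Summed markers of other cell types moved with stimulation too. The 6 neutrophil markers summed to 4990 to 9530 CPM in young fresh libraries and to 748 to 1450 in stimulated ones. Sums of the 6 monocyte and macrophage markers went from 62.8 to 156 up to 263 to 421 CPM, those of the 6 mast cell and basophil markers from 0 to 14.7 up to 41.7 to 93.2 CPM, and those of the 5 T and NK cell markers counted from 14.3 to 34.7 up to 113 to 231 CPM. Cd3e, a defining T cell marker, was at 0 in all 12 libraries, and Cd3d and Cd3g in 11 each. The part of these cells in the members' levels was not tested.

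**Figure D1:**
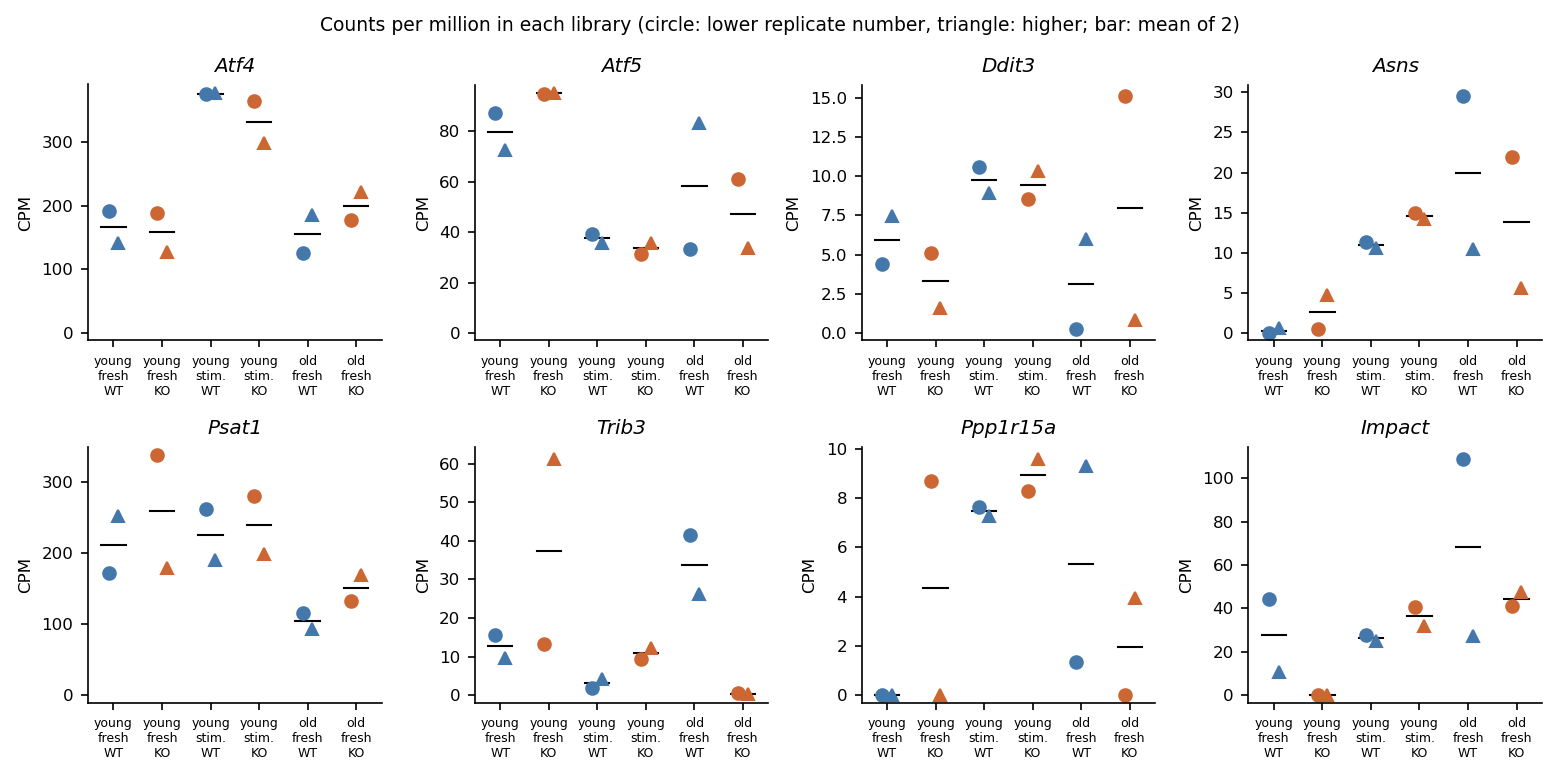
CPM (vertical axis, linear, each panel with its own scale) of the 8 tested members in each of the 12 libraries, by group. Points are libraries (circle, lower replicate number; triangle, higher) and bars are means of 2. Atf4 is high in all 4 stimulated libraries, Psat1 is low in all 4 old ones, Trib3 is near 0 in old fresh KO, and Impact is at 0 in young fresh KO.

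Atf5, a bZIP factor that, like Atf4, is translated when eIF2 is phosphorylated (chr7:44812256-44816658, minus strand), lay in the opposite order. Its level was 87.2 and 72.5 CPM in young fresh WT and 94.9 and 95.3 in the matching KO libraries, 39.3 and 35.7 in stimulated WT, 31.5 and 35.8 in stimulated KO, 33.2 and 83.2 in old fresh WT, and 60.9 and 33.5 in old fresh KO. All 4 stimulated libraries lay below all 4 young fresh ones, while the old libraries spanned both ranges. The log2 fold change of stimulated over fresh cells was -1.30 ± 0.439 (adjusted p = 0.154 by edgeR), which did not pass. It did pass with DESeq2 (adjusted p = 0.0367), with limma voom (0.0314) and with the 8 young libraries alone (0.0421). Of all genes, these settings called 6.81%, 6.17% and 4.12%, against 2.81% in the main fit. Within WT alone the adjusted p by edgeR was 0.584 and within KO alone 0.413. With 1 library left out in turn, the log2 fold change was -1.35 to -1.22. Atf5 overlaps Il4i1 and Nup62 on the other strand, and the strand setting of the counting was not given in the sources used here, so reads of these genes may be mixed.

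Ddit3 encodes CHOP, the factor tied to cell death in prolonged stress (chr10:127290774-127296288, plus strand). It had 4.39 and 7.43 CPM in young fresh WT and 5.1 and 1.57 in the matching KO libraries, 10.6 and 8.91 in stimulated WT, 8.55 and 10.3 in stimulated KO, 0.266 and 6 in old fresh WT, and 15.1 and 0.827 in old fresh KO. Every stimulated library was above every young fresh one, but the old libraries scattered over a wider range than that step. The log2 fold change with stimulation was 1.10 ± 1.44 (adjusted p = 0.747), on 27 to 32 counts in stimulated and 3 to 13 in young fresh libraries. Ddit3 shares bases with Mars on the other strand, and 2 gene models carry its symbol.

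The amino acid enzymes had different orders of level. Asns, which makes asparagine from aspartate and glutamine (chr6:7675169-7693254, minus strand), carried the composite core in the stretch shown above. Its level was 0 and 0.571 CPM in young fresh WT and 0.51 and 4.71 in the matching KO libraries, 11.3 and 10.6 in stimulated WT, 14.9 and 14.2 in stimulated KO, 29.5 and 10.5 in old fresh WT, and 22 and 5.59 in old fresh KO. All 8 stimulated and old libraries lay above all 4 young fresh ones. Young fresh WT had 1 count over both libraries. Stimulated WT (66 counts) was 36.6-fold above it, with a 95% counting interval of 6.34 to 1470, and old fresh WT (146 counts) 68.8-fold, with an interval of 12.2 to 2740. Intervals and floors cover counting error only, and the fresh replicates spread by more than counting error. Averaged over genotypes, the fitted log2 fold change was 3.75 ± 1.41 with stimulation (adjusted p = 0.189) and 4.14 ± 1.43 with age (adjusted p = 0.111), and neither passed by edgeR. DESeq2 called Asns higher with age (log2 fold change 4.22, adjusted p = 0.0114), and limma voom did not (adjusted p = 0.148). Depth moved with both steps, from 1600155 to 1963635 counts in young fresh libraries to at least 2692245 in the others, and its part was not tested.

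Psat1, the aminotransferase of serine synthesis (chr19:15904678-15947337, minus strand), had its lowest levels in old cells, in a difference that did not pass. It had 172 and 252 CPM in young fresh WT and 338 and 180 in the matching KO libraries, 262 and 190 in stimulated WT, 281 and 199 in stimulated KO, 116 and 93.1 in old fresh WT, and 133 and 170 in old fresh KO. All 4 old libraries lay below all 8 young ones, and the young groups overlapped one another. For stimulated over fresh cells the log2 fold change was -0.01 ± 0.259 (adjusted p = 1). For old over young it was -0.90 ± 0.261 (adjusted p = 0.0649), just outside the threshold. It passed by edgeR without a filter on low counts (adjusted p = 0.0228) and with DESeq2 (0.0176). Of all genes, these settings called 6.12% and 12%, against 5.00% in the main fit. Psat1 was not called by limma voom. Within WT alone the adjusted p by edgeR was 0.224 and within KO alone 0.304. With 1 library left out in turn, the log2 fold change was -1.10 to -0.64. The RefSeq start behind its stretch shown above lies inside this gene model. Gm3329 lies on the other strand of Psat1.

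**Figure D2:**
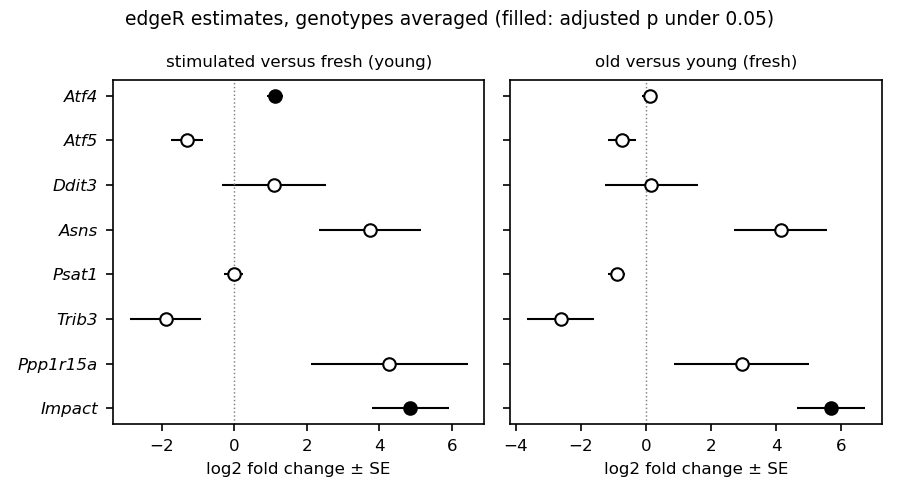
Log2 fold change ± SE (horizontal axis) of the 8 tested members in stimulated over fresh young cells (left) and old over young fresh cells (right), genotypes averaged; filled points had an adjusted p under 0.05. Atf4 (1.12) and Impact (4.85) pass on the left and Impact (5.68) on the right; fitted values of Impact, Asns and Ppp1r15a depend on a group at or near 0 counts.

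Trib3, a pseudokinase induced by ATF4 and CHOP that feeds back on both (chr2:152337422-152344032, minus strand), had the smallest p of the members between the genotypes in stimulated and in old cells. Its level was 15.7 and 9.71 CPM in young fresh WT and 13.3 and 61.3 in the matching KO libraries, 2 and 4.29 in stimulated WT, 9.38 and 12.3 in stimulated KO, 41.4 and 26.1 in old fresh WT, and 0.463 and 0.207 in old fresh KO. Old fresh KO, with 3 counts in 2 libraries, lay below every other library. Old fresh WT was 104-fold above it (95% counting interval 35.3 to 510), and young fresh KO 113-fold (37.8 to 553). In stimulated cells the order was the other way, with both KO libraries above both WT ones. The KO over WT log2 fold change was 1.79 ± 0.614 in stimulated cells (adjusted p = 0.233 by edgeR) and -6.50 ± 1.73 in old cells (adjusted p = 0.309), so neither passed. Both were under 0.05 before adjustment, as were 10.9% and 11.1% of all genes tested. With DESeq2 the old difference passed (adjusted p = 0.000609), as did 3.31% of all genes tested. Trib3 was not called in stimulated over fresh cells (log2 fold change -1.89 ± 0.987, adjusted p = 0.342), where its sign was opposite to that of Atf4. In old over young cells edgeR did not call it and DESeq2 did (log2 fold change -2.73, adjusted p = 0.0253). In the old groups, 6 megakaryocyte markers summed to 1390 to 2360 CPM in KO and 360 to 554 in WT, and the stem and progenitor markers to 1320 to 1330 and 1790 to 2070. In the stimulated groups the megakaryocyte markers summed to 446 to 486 CPM in KO and 145 to 253 in WT. Gp6, one of the megakaryocyte markers, was at 0 in 11 of 12 libraries. The part of these differences in Trib3 was not tested.

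The remaining target genes were close to absent. Chac1, an enzyme that breaks down glutathione (chr2:119351229-119354381, plus strand), had 3 counts in stimulated WT replicate 2 and 0 in the other 11 libraries. Sesn2, a leucine sensor that restrains mTORC1 (chr4:132492032-132510501, minus strand), had 1 count each in stimulated WT replicate 2 and old fresh WT replicate 1 and 0 in the other 10. Neither Chac1 nor Sesn2 reached the count minimum for a test. Sesn2 overlaps Gm12981 on its own strand, and the part of this overlap in its counts was not tested. A total of 0 over a group of 2 libraries allows up to 3 counts, which is 0.328 CPM in old fresh KO and 0.897 CPM in young fresh WT, so lower levels were not detectable at this depth.

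The regulators of the pathway's input were Ppp1r15a and Impact. Ppp1r15a encodes GADD34, which brings protein phosphatase 1 to eIF2 and so ends the response (chr7:45522916-45526268, minus strand). Its level was 0 in both young fresh WT libraries, 8.68 and 0 CPM in the matching KO libraries, 7.65 and 7.26 in stimulated WT, 8.28 and 9.6 in stimulated KO, 1.33 and 9.31 in old fresh WT, and 0 and 3.93 in old fresh KO. The stimulated libraries lay within a narrow range, and each fresh KO group had 1 library at 0. Stimulated WT (45 counts) was at least 8.31-fold higher than young fresh WT, and old fresh WT (36 counts) at least 5.66-fold higher. Each was set against a floor of 3 counts over the group, which covers counting error only. The fitted changes with stimulation (adjusted p = 0.328) and age (adjusted p = 0.46) did not pass. Tulp2 overlaps it on the other strand.

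Impact, which competes for GCN1 and so holds back the amino acid sensing kinase GCN2, passed in both comparisons of conditions. Its level was 44.5 and 10.9 CPM in young fresh WT, 0 in both young fresh KO libraries, 27.9 and 24.8 in stimulated WT, 40.8 and 31.8 in stimulated KO, 109 and 27.3 in old fresh WT, and 41 and 47.6 in old fresh KO. The young fresh KO group stood apart from all others, which had 19 to 412 counts a library. Stimulated KO (244 counts) was at least 47.4-fold and old fresh KO (407 counts) at least 57.4-fold higher than young fresh KO. Young fresh KO was at least 34.7-fold lower than young fresh WT (90 counts). These bounds cover counting error only. Averaged over genotypes, the adjusted p was 0.0239 for stimulated over fresh and 0.00622 for old over young cells. Both calls rest on the KO arm. Within KO, stimulation gave an adjusted p of 0.0248 and age 0.0117, and within WT 0.996 and 0.565, with log2 fold changes of -0.07 ± 0.979 and 1.31 ± 0.991. Of all genes tested, 0.797% passed in stimulated over fresh cells within WT and 0.649% within KO, and 1.78% and 1.82% in old over young cells. The stimulation call was lost without young fresh WT replicate 2 (adjusted p = 0.0618), young fresh KO replicate 3 (0.0565), young fresh KO replicate 4 (0.0522) or stimulated KO replicate 3 (0.0652), and it held without young fresh WT replicate 1 (0.034). The age call held without each of the 8 fresh libraries in turn, with adjusted p from 0.00474 to 0.0238. Of the pathway lists below, Eif2b4 and Eif4ebp1 were also at 0 in both young fresh KO libraries. In young fresh WT they had 11.9 and 53.7 CPM and 13.8 and 29.1 CPM. Eif4ebp1 was at 0 in both old fresh KO libraries too, against 27.9 and 53.4 CPM in old fresh WT. Eif2b4 was at 26.5 and 48.9 CPM in old fresh KO, against 0 and 22.6 in old fresh WT. By edgeR the KO over WT difference of Eif4ebp1 did not pass in young (adjusted p = 0.233) or old fresh cells (adjusted p = 0.164). DESeq2 called it in both, as it did 2.82% and 3.31% of all genes. Missing genes of the kind counted above numbered 129 in young fresh KO. The part of such losses in the 0 counts of Impact was not tested.

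In old against young fresh cells, 1 of the 8 tested members passed by edgeR, Impact, which was higher, and none was lower. Of all genes, 5.00% passed, 2.83% higher and 2.16% lower, and without old fresh KO replicate 3 the share was 2.88%. DESeq2 called 2 members higher (Impact and Asns) and 2 lower (Psat1 and Trib3). Without a filter on low counts edgeR called 1 lower (Psat1), and limma voom called Impact alone. Of all genes these settings called 12%, 6.12% and 2.2%. The median log2 fold change was 0.14 over the members and 0.05 over all genes. Atf4 was at 0.12 ± 0.223 (adjusted p = 0.866), so the change seen with stimulation had no counterpart that passed with age. The difference between these comparisons was not tested, and both use the young fresh libraries. Neutrophil marker sums were 366 to 3100 CPM in old fresh and 4990 to 9530 in young fresh libraries, and their part was not tested.

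No member passed between the genotypes. In young fresh cells 0 of 8 passed, against 0.0260% of all genes, and 1 had an unadjusted p under 0.05, Impact (adjusted p = 0.132). In stimulated cells, tested on their 4 libraries alone, 0 of 8 passed against 1.23% of 10494 genes, and only Trib3 had an unadjusted p under 0.05. In old cells 0 of 8 passed against 0.0433%, and again only Trib3 had an unadjusted p under 0.05. Of all genes tested, 10.7% had an unadjusted p under 0.05 in young fresh, 10.9% in stimulated and 11.1% in old cells. DESeq2 called Impact in young and Trib3 in old fresh cells, and no member in stimulated cells, and limma voom called none in these 3 comparisons. Of all genes, DESeq2 called 2.82% in young fresh, 3.31% in old fresh and 1.23% in stimulated cells. For limma voom these shares were 0%, 0.0173% and 0.81%. Standard errors were smaller in the stimulated libraries. There, the KO over WT log2 fold change was -0.16 ± 0.136 for Atf4 (adjusted p = 0.745), -0.13 ± 0.248 for Atf5 (0.912), 0.44 ± 0.399 for Asns (0.771), 0.11 ± 0.182 for Psat1 (0.895) and 0.49 ± 0.266 for Impact (0.547). The median over the 8 members was 0.27 in young fresh, 0.20 in stimulated and -0.42 in old cells, against 0.00 in each over all genes.

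**Figure D3:**
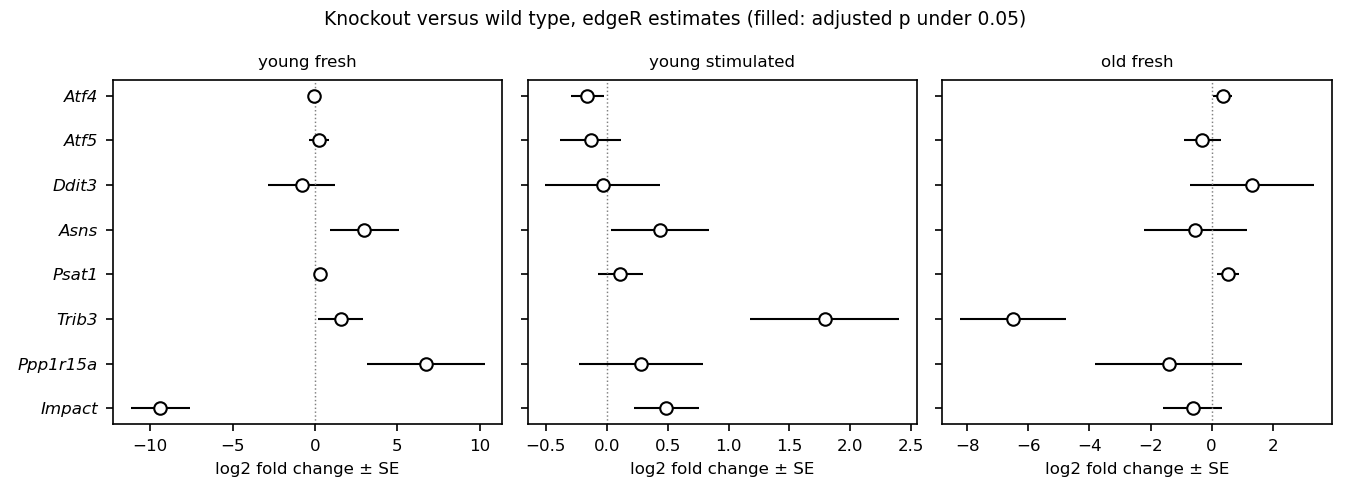
KO over WT log2 fold change ± SE (horizontal axis, each panel with its own scale) of the 8 tested members in young fresh, stimulated and old fresh cells. No point is filled, since none had an adjusted p under 0.05; Trib3 lies above 0 in stimulated (1.79) and below 0 in old cells (-6.50).

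Whether the response to stimulation or age differed between the genotypes was tested as an interaction. For stimulation 0 of 8 members and 0% of all genes passed by edgeR, 577 genes (5%) had an unadjusted p under 0.05, and DESeq2 called 32 and limma voom 0 genes. Impact was the only member with an unadjusted p under 0.05 (adjusted p = 0.415). It was called higher by DESeq2 (adjusted p = 0.0106) and by edgeR without a filter (0.0373), which called 0.0631% of all genes. For age 0 of 8 members passed by edgeR against 0.0346% of all genes. Impact (adjusted p = 0.234) and Trib3 (adjusted p = 0.261) were under 0.05 before adjustment, as were 12.2% of all genes. DESeq2 called Impact higher (adjusted p = 0.0114) and Trib3 lower (0.00146), edgeR without a filter called Impact higher (0.0423), and limma voom called no member. Of all genes, DESeq2 called 2.74%, edgeR without a filter 0.505% and limma voom 0%. Impact was at 0 counts in young fresh KO and Trib3 at 3 in old fresh KO. For Atf4 the interaction was -0.11 ± 0.446 with stimulation and 0.44 ± 0.447 with age on the log2 scale.

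Over 7 lists of other pathway genes, edgeR called 2 of 79 tested genes with stimulation (2.53%) and 3 with age (3.80%), against 2.81% and 5.00% of all genes. DESeq2 called 786 and 1390 of all 11548 genes in these comparisons and limma voom 712 and 254, and their counts in the lists are to be read against those. Likewise, 17.7% of all genes had an unadjusted p under 0.05 with stimulation and 20.8% with age. Among 19 genes for the eIF2 kinases, eIF2, eIF2B and the phosphatase, 0 were higher by edgeR and 1 lower with stimulation, and the same counts held for age. The gene lower with stimulation was Ppp1cb, a catalytic subunit of protein phosphatase 1, at 406 and 578 CPM (means of WT and KO) in young fresh against 231 and 243 in stimulated groups (log2 fold change -1.03 ± 0.24, adjusted p = 0.0295). That call was lost with the 8 young libraries alone (adjusted p = 0.0602) and without young fresh WT replicate 2 (0.145), young fresh KO replicate 3 (0.111), stimulated WT replicate 1 (0.0568), stimulated KO replicate 3 (0.0652) or stimulated KO replicate 4 (0.0701). With stimulation DESeq2 and limma voom each called 3 genes of this list (Eif2b4, Eif2s2 and Ppp1cb), and with age DESeq2 called 3 (Dnajc3, Eif2b4 and Nck1) and limma voom 0. The gene lower with age was Nck1, an adaptor that can bring phosphatase to eIF2, at 94.9 and 110 CPM in young and 32.7 and 18.3 in old groups (log2 fold change -2.06 ± 0.438, adjusted p = 0.0121). It did not pass with limma voom (0.0739) or with the 8 fresh libraries alone (0.0637). Transcripts of the kinases themselves did not pass, with Eif2ak4, which encodes GCN2, at -0.03 ± 0.713 for stimulation and 1.03 ± 0.701 for age.

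Of 8 tested genes of amino acid synthesis and one-carbon metabolism driven by ATF4, none passed with stimulation by edgeR, DESeq2 or limma voom, and 2 had an unadjusted p under 0.05. Of the 8, 7 were above 0, as were 60.3% of all genes. The median log2 fold change was 1.16 against 0.27 over all genes. Phgdh, the first enzyme of serine synthesis, was at 25 and 36.2 CPM in young fresh and 117 and 79.1 in stimulated groups (1.68 ± 0.58, adjusted p = 0.164). It is named for its place before Psat1 in that route and was chosen after its values were seen. Of 8 amino acid transporters none passed by edgeR (3 had an unadjusted p under 0.05), DESeq2 called 1 and limma voom 0, and the median was 0.87. Of 13 genes for tRNA synthetases and the tRNA exporter Xpot none passed by edgeR (2 under 0.05 unadjusted). DESeq2 and limma voom called 1 each, not the same gene. The median of these 13 was 0.19, below that of all genes. With age edgeR and limma voom called no gene of these 3 lists, whose medians were 0.10, 0.45 and 0.06. Their genes under an unadjusted 0.05 with age numbered 0, 2 and 3, and DESeq2 called 0, 2 and 2.

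Among 11 tested transcription factors and effectors of the response, 1 gene passed by edgeR, higher, with stimulation, with age and between the genotypes in stimulated cells, and it was Nupr1 each time. With stimulation DESeq2 called 3 of the 11 (Eif4ebp1, Klhl24 and Nupr1) and limma voom 0, and in the other 2 comparisons both called Nupr1 alone. Nupr1 encodes a small stress-induced chromatin protein. Its mean level was 2.42 CPM in young fresh WT and 4.7 in the matching KO libraries, 8.13 in stimulated WT, 44.7 in stimulated KO, 183 in old fresh WT and 106 in old fresh KO. Both old groups lay above all young ones, from 71.4 to 184 CPM against 1.02 to 53.3. The log2 fold change was 5.35 ± 0.674 with age (adjusted p = 0.000261), 2.49 ± 0.625 with stimulation (adjusted p = 0.0449) and 2.48 ± 0.396 for KO over WT in stimulated cells (adjusted p = 0.00617). The stimulation call was lost with RLE scaling (0.0527), with limma voom (0.156), with the 8 young libraries alone (0.139) and without young fresh WT replicate 1 (0.106) or 2 (0.154), young fresh KO replicate 3 (0.0657), stimulated WT replicate 1 (0.169) or stimulated KO replicate 3 (0.0645) or 4 (0.108). The genotype call was lost in the fit of all 12 libraries (adjusted p = 1) and without stimulated KO replicate 3 (0.0537) or 4 (0.073). Marker sums of other cell types differed between these stimulated groups too, at 446 to 486 CPM in KO against 145 to 253 in WT for megakaryocytes, 41.7 to 64.3 against 79.9 to 93.2 for mast cells and basophils, and 155 to 263 against 291 to 376 for 7 erythroid markers. Their part in Nupr1 was not tested.

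Of 9 mitochondrial stress inputs and chaperones, 1 passed by edgeR, higher with age: Hspe1, the mitochondrial co-chaperonin, at 431 and 753 CPM in young fresh and 1030 and 1010 in old groups (log2 fold change 0.84 ± 0.148, adjusted p = 0.00371). Within KO alone it was 0.42 (adjusted p = 0.315). With age limma voom called Hspe1 alone, and DESeq2 called Hspe1 and Clpp, a subunit of the mitochondrial ClpXP protease, which edgeR put at -1.74 ± 0.75 (adjusted p = 0.201). With stimulation edgeR called none of the 9 (3 under 0.05 unadjusted), DESeq2 called 1 (Hspe1) and limma voom none. Hspa5, the main chaperone of the endoplasmic reticulum, was at -0.48 ± 0.221 with stimulation (adjusted p = 0.267). Of 11 tested sestrins and sensors of mTORC1 none passed by edgeR in either comparison (0 and 1 under 0.05 unadjusted), DESeq2 called 0 with stimulation and 1 with age (Sesn3), and limma voom called 0 in both. Between the genotypes in stimulated cells, the lists other than that of Nupr1 had no gene called by edgeR, DESeq2 or limma voom. They had 0 or 1 gene a list under 0.05 unadjusted, as were 10.9% of all genes tested there.

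**Figure D4:**
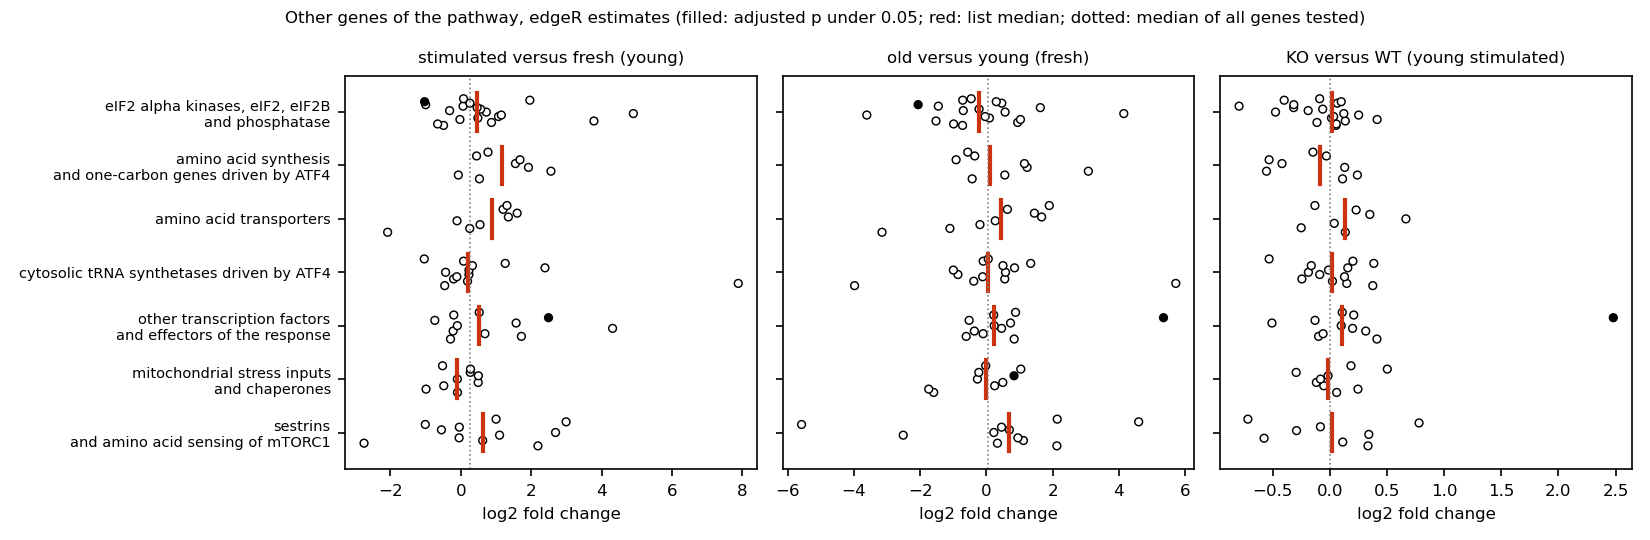
Log2 fold changes (horizontal axis, each panel with its own scale) of the other pathway genes, a point a gene, in rows by list; filled points had an adjusted p under 0.05, red bars are list medians and the dotted line is the median of all genes. Filled points are Ppp1cb and Nupr1 with stimulation, Nck1, Nupr1 and Hspe1 with age, and Nupr1 between the genotypes in stimulated cells.

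The genes whose log2 level followed a member most closely over the 12 libraries were listed among 7960 genes, for the 3 members with the highest mean CPM. For Atf4 they were Dut (Pearson r 0.963), Hnrnpm (0.956) and Exosc5 (0.946), and over the 8 fresh libraries alone these were at 0.921, 0.79 and 0.672. For Psat1 they were Mtf2 (0.893), Szrd1 (0.89) and Pex19 (0.87), and for Atf5 Rpl26 (0.949), Ndufb10 (0.937) and Cul9 (0.933). None of these 9 genes was a member. Between members, Atf4 and Ppp1r15a were at r = 0.7 over 12 libraries and 0.47 over the 8 fresh ones, Atf4 and Atf5 at -0.59 and -0.01, and Atf4 and Trib3 at -0.45 and -0.66. These are descriptions, and the points share groups, depth and preparation.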

How the data were processed

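Per the labels' protocols, RNA was purified with the RNeasy Plus Micro kit and libraries were made with QuantSeq 3′ mRNA-Seq FWD. The authors deposited 1 table of unnormalized counts by gene symbol for each library. The submitters' processing notes name HISAT2 2.2.1, HTSeq 0.9.1, mm10 and DESeq2 1.34.0; the annotation and strand setting are not given in the sources used here. Gene positions came from GENCODE on GRCm38.

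Counts were tested in R 4.3.3 with edgeR 4.0.16 (quasi-likelihood, TMM scaling, filterByExpr at 10 counts a library and 15 in total, Benjamini-Hochberg adjustment over all genes, threshold 0.05). One fit held 6 groups over 12 libraries (11548 genes, 6 residual and 8.68 prior degrees of freedom). KO over WT in stimulated cells used its 4 libraries (10494 genes, 2 residual and 13 prior), because the spread differed between fresh and stimulated groups. CPM used TMM sizes, and log2 levels for correlations a prior count of 2. Each library's depth was 1600155 to 5164720 counts, so 1 count was worth 0.207 to 0.627 CPM. A group at 0 was bounded with 3 counts over the group, and ratios with 1 to 3 counts have exact 95% intervals. Alternatives were RLE scaling, no filter, DESeq2 1.42.0, limma 3.58.1 voom with a weight per group, other library sets, a block for replicate number, the omission of single libraries and, chosen once the data had been seen, each genotype alone. The edgeR steps were tested on simulated data.

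Members, 7 pathway lists and marker lists were chosen with earlier results of these data known. All 10 members were described. In each of 3 comparisons up to 3 genes with the smallest adjusted p were named from each list among those that passed, and 3 genes most like each of the 3 members with the highest CPM, among named genes of at least 10 CPM. Eif2ak4, Hspa5, Phgdh and, for their 0 counts in young fresh KO, Eif2b4 and Eif4ebp1 were named outside this rule, after their values were seen. Replicate numbers did not pair libraries (correlations of deviations -0.013 to 0.012). No 2 replicates were alike within counting noise (chi-square per gene 5.45 to 60.5).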

Additional observations from a re-analysis of the deposited data

Results flagged for a closer look

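For 3 differences of effects, every library of one arm moved one way and every library of the other arm the opposite way. None passed in edgeR's quasi-likelihood test of the difference after Benjamini-Hochberg adjustment. Trib3 in old over young cells was higher in both old WT libraries and lower in both old KO libraries. The 2 effects differed by 8.05 on the log2 scale (adjusted p = 0.261, with 4 of 11548 genes passing). For Impact, KO over WT was higher in both stimulated KO libraries and lower in both young fresh KO libraries, by a difference of 9.84 (adjusted p = 0.415, with 0 genes passing). For Trib3, KO over WT was higher in stimulated and lower in old fresh cells, by a difference of 8.27 (adjusted p = 0.599, with 1 gene passing). These sizes depend on groups with 3 counts or fewer and are no bounds. No group had 4 or more libraries, so single libraries were not screened.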

How the results depend on the processing

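Members' log2 fold changes kept their sign in 331 of 341 values under other settings and in 314 of 352 with 1 library left out. The settings within WT and within KO were chosen after seeing the data. Members called lower with stimulation were 1 in place of 0 with DESeq2, with limma voom and with the libraries of the comparison alone, each time Atf5. Members called higher with stimulation were 0 within WT and 1 within KO. With age, members called lower were 1 without a filter, 2 with DESeq2 (Psat1 and Trib3) and 1 with the replicate block (Psat1, log2 fold change -0.87, adjusted p = 0.0404), and members called higher were 2 with DESeq2 (Impact and Asns) and 0 within WT. Between genotypes, 1 member was called lower in young fresh cells without a filter and with DESeq2 (Impact), and 1 in old cells with DESeq2 (Trib3). For the interaction with stimulation, 1 member was called higher without a filter and with DESeq2, and for that with age 1 higher in both settings (Impact each time) and 1 lower with DESeq2 (Trib3). The cause of these changes was not tested. With 1 library left out, members called higher with stimulation were 0 to 2 and members called lower with age 0 to 1, and the other counts did not move. A group left with 1 library was assumed to vary like the others. The replicate numbers did not pair the libraries, and the block changed no other member's call. Knockout and wild-type libraries share no replicate numbers, so no block was fitted between them.

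Signs turned for Psat1 with stimulation (0 without a filter, 0.02 with voom, 0.09 within WT), Impact with stimulation (-0.07 within WT), and with age for Ddit3 (-0.88 with voom, -0.33 with the replicate block, -0.91 within WT), Atf4 (-0.10 within WT), Trib3 (1.41 within WT) and Ppp1r15a (-1.12 within KO). With 1 library left out in turn, signs also turned, with log2 fold changes from lowest to highest. These were Psat1 (-0.19 to 0.27) with stimulation, Atf4 (-0.04 to 0.27) and Ddit3 (-1.53 to 0.69) with age and Atf4 (-0.41 to 0.17) and Psat1 (-0.26 to 0.66) in KO over WT in young fresh cells. They were Ddit3 (-0.18 to 0.10) and Psat1 (-0.15 to 0.36) in KO over WT in stimulated cells, Atf5 (-0.80 to 0.51), Ddit3 (-1.84 to 4.70), Asns (-1.81 to 0.41), Ppp1r15a (-6.91 to 0.57) and Impact (-1.30 to 0.72) in KO over WT in old fresh cells, Atf4 (-0.35 to 0.22), Trib3 (-0.48 to 1.72), Psat1 (-0.57 to 0.35) and Ppp1r15a (-7.49 to 0.26) in the interaction with stimulation and Atf5 (-1.03 to 0.27), Ddit3 (-1.01 to 5.52) and Psat1 (-0.10 to 0.82) in the interaction with age.

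Counts over all genes moved by more than 1.5 times. With stimulation 325 genes became 521 without a filter, 786 with DESeq2 and 712 with voom, with the median of all log2 fold changes at 0.27, 0.65, 0.19 and 0.58. It became 203, 195, 160 and 194 without stimulated WT replicates 1 and 2 and KO replicates 3 and 4, and 92 within WT and 75 within KO. With age 577 became 971, 1390 and 254, 291 with the libraries of the comparison alone, 360 without old fresh KO replicate 3, and 205 and 210 within WT and KO. KO over WT went from 3 to 61, 326, 0 and 0 in young and from 5 to 79, 382, 2 and 0 in old fresh cells. Leaving out any single library of these fresh comparisons also moved their counts by more than 1.5 times. In stimulated cells 129 became 340 without a filter, 85 with voom and 0 in the fit of 12 libraries, 24 without stimulated KO replicate 4, 48 without stimulated KO replicate 3 and 296 without stimulated WT replicate 1. The interaction with stimulation went from 0 to 10 without a filter and 32 with DESeq2, and that with age from 4 to 80, 316, 0 and 0, and 28 with the replicate block. The count for the interaction with age also moved by more than 1.5 times when any single fresh library was left out. Total counts in place of TMM sizes moved group means of CPM by -12.2% to 11.9%. Few counts limit what can be compared: Chac1 and Sesn2 did not reach the count minimum, and young fresh WT had 1 count of Asns and 0 of Ppp1r15a.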
